A study of Mus musculus with 33 samples.

Results

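The hedgehog pathway genes described here are the receptor gene Ptch1, the co-receptor genes Boc and Gas1, the signal transducer gene Smo, the transcription factor genes Gli1, Gli2 and Gli3, the ligand-binding inhibitor gene Hhip, and Foxf1. They were picked by gene symbol, with earlier results of these data known, and all 9 were found among the 17120 genes of the count table. RNA had been sequenced from mouse embryonic stem cell (mESC) cultures, derived from mice with the ScxGFP tendon reporter, in 11 groups of 3 replicate libraries. The paraxial mesoderm (PM) group was taken at day 6 (D6) as embryoid bodies that had been directed toward mesoderm with CHIR, LDN-193189 and AGN 193109. The other groups were plated in monolayer and given CD1530, which activates RARγ, or AGN 193109 (AGN below), an inverse agonist of the RARs, and were collected at D6.25 and D6.75 and then at D7.5, D8.5 and, last, D10. Both conditions held TGFβ1, FGF2 and SAG, a small molecule that activates Smo, from D6 onward. PM had received none of these 3 factors. Every plated culture had SAG, so an effect of SAG cannot be told apart from effects of the other factors, of plating or of time. The cultures were not sorted, and which mESC line each replicate came from is not given in the sources used here.

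In the hedgehog pathway, a ligand such as Shh binds Ptch1 with the help of Boc, Gas1 or Cdon, and this frees Smo, a membrane protein that Ptch1 otherwise holds inactive at the primary cilium. Active Smo keeps Gli2 and Gli3 from being cut into repressors, and the resulting activators switch on targets that include Gli1, Ptch1 and Hhip, the last pair being feedback inhibitors that take up ligand. Around the notochord, the pathway is known for turning part of the somite into sclerotome, the source of axial cartilage and axial tendon. SAG acts on Smo directly and so does not need ligand.

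Levels below are in CPM, gene counts scaled to a common library size with edgeR's TMM factors. The libraries held between 17116084 and 22775275 counts in all, except for 38120841 in AGN D8.5 replicate 1. A gene was called where edgeR's quasi-likelihood F test gave a Benjamini-Hochberg adjusted p under 0.05 over all 17120 genes. All 9 hedgehog genes were tested, since the filter on low counts removed 0 genes. PM libraries held at least 1 CPM of 5 of the 6 listed paraxial mesoderm markers. The 6 summed to between 109 and 118 CPM in PM, 142 and 145 in CD1530 D8.5 and 131 and 144 in AGN D8.5. The sum thus did not mark PM out. Tbx6 was at 9.56 CPM in PM and 0.249 in CD1530 D8.5, while Meox1 was at 5.91 and 131. The tendon marker Scx was at 6.41 ± 0.85 CPM in PM, 858 ± 17 in CD1530 D10 and 1220 ± 28 in AGN D10 (mean ± SD, n = 3). The 6 listed cartilage markers summed to between 237 and 244 CPM in the CD1530 D10 libraries and between 3080 and 3220 in AGN D10. The library CD1530 D6.75 replicate 1 stood apart. Its genes differed from the mean of the other replicates with an SD of 0.266 log2 units, against 0.108 to 0.165 in all other libraries, and the difference ran with gene length (Spearman rho −0.65 across genes). The calls at D6.75 that turn on it are named with their values without it. In bulk cultures, fewer cells of a type and less RNA per cell cannot be told apart.

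Promoter sequence from RefSeq (GRCm38.p6) was found for 6 of the 9 genes, namely Gli2, Gli3, Ptch1, Hhip, Smo and Gas1. Of these, 3 are shown, those of Hhip and Ptch1 as feedback targets that moved together at D10, and that of Gli2 as the gene that fell when induction began. Each is the stretch of 250 bases before the RefSeq start, on the gene's strand, and capitals mark the GLI core CCACCC or its reverse complement GGGTGG.
Hhip, chr8:80058009-80058258, minus strand: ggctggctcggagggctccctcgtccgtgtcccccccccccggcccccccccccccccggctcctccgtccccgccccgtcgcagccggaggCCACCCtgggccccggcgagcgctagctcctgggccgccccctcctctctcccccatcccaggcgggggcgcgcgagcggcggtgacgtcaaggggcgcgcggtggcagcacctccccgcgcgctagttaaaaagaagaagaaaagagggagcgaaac
Ptch1, chr13:63565736-63565985, minus strand: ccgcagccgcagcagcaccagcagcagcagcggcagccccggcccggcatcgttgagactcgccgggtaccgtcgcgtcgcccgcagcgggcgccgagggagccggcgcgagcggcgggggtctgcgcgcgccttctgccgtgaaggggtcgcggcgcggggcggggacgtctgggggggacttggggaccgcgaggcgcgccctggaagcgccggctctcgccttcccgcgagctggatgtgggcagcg
Gli2, chr1:119053620-119053869, minus strand: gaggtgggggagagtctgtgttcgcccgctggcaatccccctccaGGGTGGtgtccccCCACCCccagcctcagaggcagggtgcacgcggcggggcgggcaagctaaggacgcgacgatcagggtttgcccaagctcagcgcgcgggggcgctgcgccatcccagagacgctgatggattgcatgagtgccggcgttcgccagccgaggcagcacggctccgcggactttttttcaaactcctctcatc
Searched on both strands, the core occurred at 1 place in the Hhip stretch, at 2 in the Gli2 stretch and at none in the Ptch1 stretch, and 28.1% of 32851 promoter stretches of the same length held it. The longer GLI site GACCACCCA, which contains the core, was in none of the 6 and in 0.225% of all. The Ptch1 start used by RefSeq lies inside the longer gene model that the GENCODE M21 annotation gives. These matches describe letters in a window and say nothing of GLI binding in these cultures.

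The first comparison asked how the pathway genes differed 6 hours after PM cells were given the induction media. Most of them rose in both conditions, led by Hhip and Gli1, while Gli2 fell. CD1530 D6.25 against PM gave 6 of the 9 genes as higher (34.5% of all genes) and 1 as lower (33.3%). In AGN D6.25 against PM, 7 were called higher (35% of all genes) and 1 lower (33.1%). By D10 all 9 were called higher than PM in CD1530 (43.3% of all genes) and 0 lower (39.9%), and in AGN 8 were called higher (41.6%) and 0 lower (40.4%), Gli3 being the exception. The median log2 fold change of the 9 genes against PM was 0.54 in CD1530 D6.25, 1.02 in AGN D6.25, 1.97 in CD1530 D10 and 2.38 in AGN D10, where the median of all genes lay between −0.002 and 0.043. These 4 comparisons share the PM libraries and are not independent of each other.

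**Figure D1:**
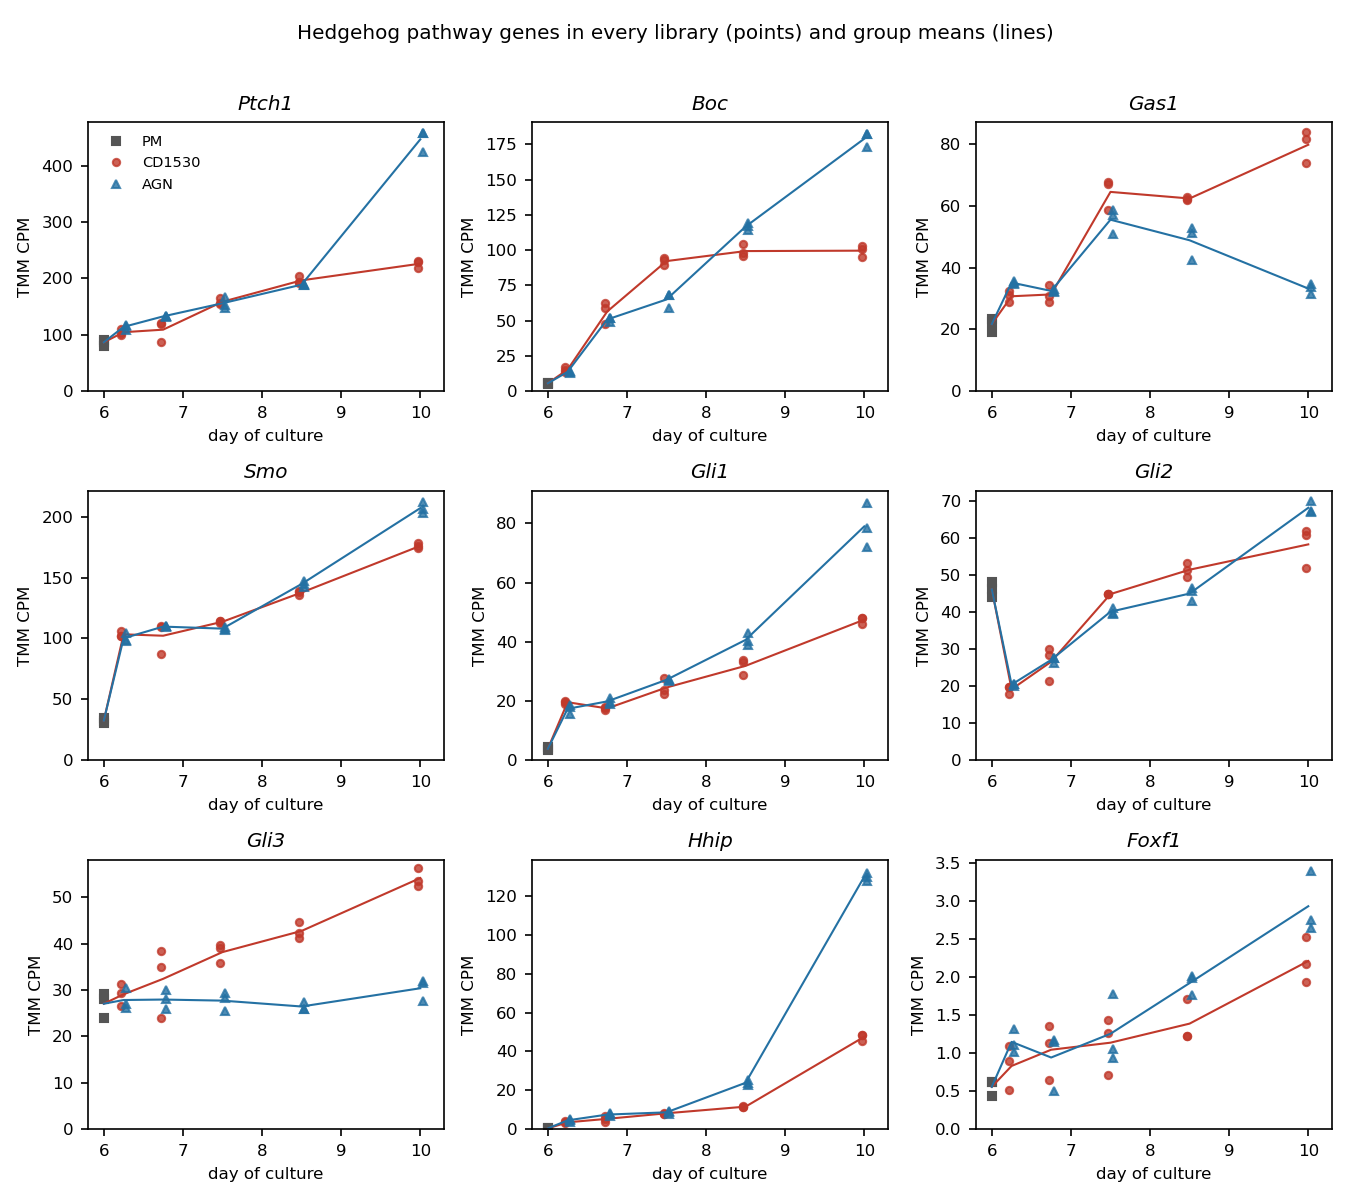
TMM CPM (vertical axes, each from 0) against day of culture for the 9 genes, with a point for each library (square PM, circle CD1530, triangle AGN) and lines through the group means. Ptch1, Hhip, Gli1 and Boc end higher in AGN at D10, Gas1 and Gli3 end higher in CD1530, and Gli2 dips from 46.1 CPM in PM to 19.1 and 20.4 CPM at D6.25.

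Between CD1530 and AGN, more of the 9 genes were called at later times, and the shares of all genes called rose as well. At D6.25, edgeR called 0 genes higher in CD1530 (1.23% of all genes) and 0 lower (0.695%), although Gli1, Hhip and Gas1 had an unadjusted p under 0.05. At D6.75, 0 were called higher (7.94% of all genes) and 2 lower (10%), Ptch1 and Hhip. Without CD1530 D6.75 replicate 1, Gli3 and Boc were called higher (8.6% of all genes) and Ptch1 lower (8.94%). At D7.5, 3 were called higher in CD1530 (15.2%), Gli3, Boc and Gas1, and 0 lower (11.8%). At D8.5, 3 were higher in CD1530 (20.4%), Gli2, Gli3 and Gas1, and 3 lower (19.6%), Gli1, Hhip and Boc. At D10, 2 were higher in CD1530 (22.7%), Gas1 and Gli3, and 6 were lower (24%), Hhip, Ptch1, Boc, Gli1, Smo and Gli2. The median log2 fold change of the 9 genes at D10 was −0.41, against −0.019 for all genes. The change in the difference over the 5 time points was called for 8 of the 9 genes (48.8% of all genes), all but Foxf1. From D8.5 to D10 alone, the step differed between conditions for 6 of them (26.8%).

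**Figure D2:**
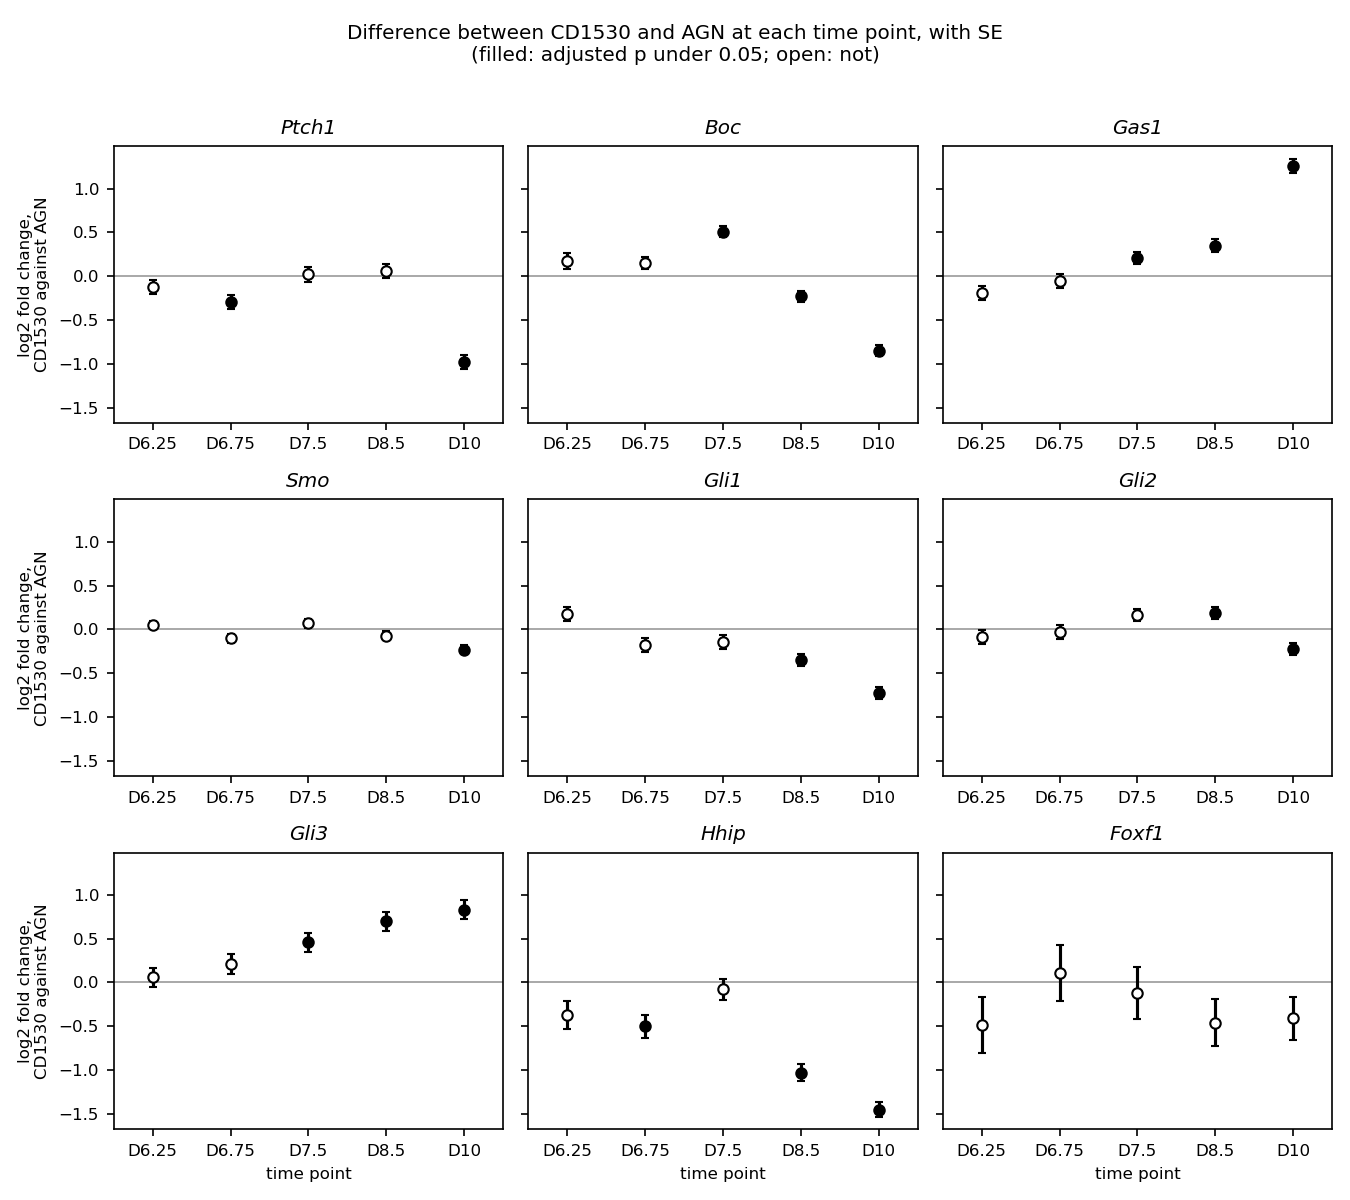
Log2 fold change of CD1530 against AGN (vertical axis, above 0 means higher in CD1530) at the 5 time points for each gene, with SE bars and filled points where the adjusted p was under 0.05. Boc passes from 0.51 at D7.5 to −0.85 at D10, and Gas1 climbs to 1.26.

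Ptch1 (chr13:63508328-63573598 on GRCm38, minus strand) encodes the receptor that holds Smo inactive and is itself a target of the pathway. Its level was 91.6, 80.6 and 87.8 CPM in the 3 PM libraries. It was 99.7, 103 and 111 CPM in CD1530 D6.25 and 117, 116 and 109 CPM in AGN D6.25. Every D6.25 library thus exceeded every PM library, by 1.21-fold in CD1530 (log2 fold change 0.27 ± 0.08 SE, adjusted p = 0.00454) and 1.31-fold in AGN (0.39 ± 0.08, adjusted p = 0.000118). At D8.5 the conditions lay close, with 192, 193 and 205 CPM in CD1530 and 189, 188 and 190 CPM in AGN. The difference there was 0.06 on the log2 scale with a 95% interval from −0.10 to 0.22. At D10 Ptch1 stood at 231, 219 and 229 CPM in CD1530 and at 424, 459 and 458 CPM in AGN. All AGN D10 libraries were above all CD1530 D10 libraries, with CD1530 at 0.506 of AGN (log2 fold change −0.98 ± 0.08, adjusted p = 2.45e-11). The last step took Ptch1 up 2.37-fold in AGN and 1.15-fold in CD1530, and the test of that difference gave −1.04 ± 0.11 on the log2 scale (adjusted p = 3.25e-08). The CD1530 step had an adjusted p of 0.0251 and lost its call, with values up to 0.208, under scaling by library size and without CD1530 D8.5 replicate 1 or 2 or CD1530 D10 replicate 1 or 3.

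Ptch1 was also called lower in CD1530 at D6.75 (log2 fold change −0.29 ± 0.08, adjusted p = 0.0105), where CD1530 replicate 1 had 86.3 CPM, replicates 2 and 3 had 120 and 121, and AGN had 133, 131 and 134. All 3 CD1530 libraries were below the AGN libraries. Without CD1530 D6.75 replicate 1 the log2 fold change was −0.15 and still called (adjusted p = 0.0275), and in a fit of the D6.75 libraries alone it was not (adjusted p = 0.193).

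Boc (chr16:44485049-44558897, minus strand) encodes a co-receptor that presents ligand to Ptch1, and its order between the conditions turned during the culture. Its level was 5.89, 5.67 and 5.01 CPM in PM, 13.8, 16.9 and 14.9 CPM in CD1530 D6.25, and 12.8, 14.4 and 13.7 CPM in AGN D6.25. From D6.25 to D6.75 it rose 3.7-fold in CD1530 and 3.74-fold in AGN, with no overlap between libraries in either condition. At D6.75 the CD1530 libraries held 47.8, 59.1 and 62.3 CPM and the AGN libraries 51.7, 51.7 and 48.9 CPM, a difference that was not called, and without CD1530 replicate 1 it was called higher in CD1530 (log2 fold change 0.26, adjusted p = 0.000185). CD1530 led at D7.5, with 89.6, 94.2 and 92.8 CPM against 67.8, 68.1 and 59.0 CPM in AGN (log2 fold change 0.51 ± 0.06, adjusted p = 4.41e-08). By D8.5 the order had turned, with 96.1, 104 and 97.8 CPM in CD1530 against 117, 119 and 114 CPM in AGN (−0.23 ± 0.06, adjusted p = 0.00205). At D10 the CD1530 libraries were at 101, 94.8 and 103 CPM and the AGN libraries at 182, 173 and 182 CPM. From D8.5 to D10 Boc rose 1.54-fold in AGN, while the CD1530 step was 0.00 on the log2 scale with an interval from −0.13 to 0.13, and the steps differed (−0.61 ± 0.09, adjusted p = 6.56e-07). Against PM, Boc was 17.9-fold higher in CD1530 D10 and 32.3-fold higher in AGN D10.

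Gas1 (chr13:60174405-60177365, minus strand) encodes another co-receptor, tethered to the membrane by a lipid anchor, and moved the opposite way to Boc and Ptch1 at the end. PM had 23.4, 22.5 and 19.2 CPM. At D6.25 CD1530 had 28.8, 31.0 and 32.3 CPM and AGN had 34.9, 34.7 and 35.8 CPM, and both were called above PM, at 1.41-fold and 1.62-fold. A rise between D6.75 and D7.5 was seen in both conditions, 2.06-fold in CD1530 and 1.71-fold in AGN. The D7.5 libraries of CD1530 held 67.8, 67.2 and 58.5 CPM and those of AGN held 50.9, 58.5 and 57.1 CPM. This D7.5 difference was called (log2 fold change 0.21 ± 0.07, adjusted p = 0.0202) but was lost, with an adjusted p of up to 0.142, when CD1530 D7.5 replicate 1 or 2 or AGN D7.5 replicate 1 was left out. After D7.5 the conditions parted. Gas1 rose 1.28-fold from D8.5 to D10 in CD1530, to 73.8, 83.9 and 81.6 CPM, and fell to 0.676 of its D8.5 level in AGN, to 33.6, 34.6 and 31.4 CPM. The steps differed by 0.92 ± 0.10 on the log2 scale (adjusted p = 7.36e-09). At D10 Gas1 was 2.4-fold higher in CD1530 (log2 fold change 1.26 ± 0.08, adjusted p = 4.46e-17), and no library of one condition reached the other. A gene on the opposite strand, Gm48488, covers 589 bases (19.89%) of the Gas1 exons, and the strand setting of the counting is not stated. Gm48488 itself was counted at 1.40 ± 0.07 CPM in CD1530 D10 and 0.968 ± 0.24 in AGN D10.

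Smo (chr6:29735503-29761365, plus strand), the gene of the membrane protein on which SAG acts, rose early, and its differences between the conditions were small. It was at 34.6, 32.1 and 30.5 CPM in PM. At D6.25 it was at 102, 106 and 102 CPM in CD1530 (3.18-fold, log2 fold change 1.67 ± 0.05, adjusted p = 3.32e-27) and at 97.8, 104 and 98.4 CPM in AGN (3.08-fold). Its levels stayed between 87.5 and 114 CPM in the D6.75 and D7.5 libraries of both conditions. At D10 it reached 176, 174 and 178 CPM in CD1530 and 203, 206 and 212 CPM in AGN. The AGN libraries were all higher, but by little, since CD1530 stood at 0.85 of the AGN level (log2 fold change −0.23 ± 0.05, adjusted p = 7.14e-05). The last step did not pass the test of a difference between conditions (−0.16 ± 0.07, adjusted p = 0.0689).

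Gli1 (chr10:127329882-127341974, minus strand) encodes a Gli activator whose own transcription is a common readout of the pathway. The PM libraries had 3.49, 3.59 and 4.26 CPM. At D6.25 CD1530 had 20.1, 19.1 and 19.5 CPM and AGN had 18.6, 17.9 and 15.5 CPM. These are rises of 5.19-fold (log2 fold change 2.38 ± 0.11, adjusted p = 2.26e-22) and 4.61-fold (2.20 ± 0.11, adjusted p = 6.09e-21). From D6.25 to D6.75 neither condition passed the test, and from D6.75 every step was called higher in both. At D8.5 the libraries parted, with 28.8, 33 and 33.8 CPM in CD1530 and 38.9, 42.8 and 40.2 CPM in AGN (−0.35 ± 0.07, adjusted p = 0.000105). At D10 CD1530 was at 48.2, 46.0 and 48.2 CPM and AGN at 78.3, 86.8 and 71.9 CPM, so that CD1530 held 0.601 of the AGN level (−0.73 ± 0.07, adjusted p = 2.22e-12). The step from D8.5 to D10 was 1.49-fold in CD1530 and 1.95-fold in AGN and differed between them (−0.39 ± 0.10, adjusted p = 0.00232). Gli1 shares 62 bases of exon with Arhgap9 on the opposite strand, 1.24% of its exonic length. It shares 265 bases (5.31%) with Gm47200, also on the opposite strand, which was not among the genes of the count table.

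Gli2 (chr1:118834132-119053619, minus strand), which encodes the main activator among the Gli factors, was the single gene of the 9 that fell when induction began. It was at 48.1, 44.0 and 46.1 CPM in PM. It was at 17.9, 19.8 and 19.6 CPM in CD1530 D6.25, 0.416 of PM (log2 fold change −1.27 ± 0.08, adjusted p = 2.3e-18). In AGN D6.25 it was at 20.6, 20.5 and 20.0 CPM, 0.442 of PM (−1.18 ± 0.08, adjusted p = 2.28e-17). The level was then called higher at every following step in both conditions. The step from D7.5 to D8.5 and, in CD1530, that from D8.5 to D10 were small (1.12-fold to 1.15-fold) and lost their calls under several alternatives, among them scaling by library size. At D10 Gli2 was above PM in both conditions, 1.26-fold in CD1530 and 1.48-fold in AGN. At D8.5 CD1530 held 49.5, 53.2 and 51.4 CPM and AGN held 46.4, 45.6 and 42.8 CPM (0.19 ± 0.07, adjusted p = 0.0242). At D10 CD1530 held 60.8, 51.9 and 61.9 CPM and AGN 66.9, 70.0 and 67.3 CPM, with CD1530 now lower (−0.22 ± 0.07, adjusted p = 0.00539). Both of these small differences depended on single libraries. The D8.5 call was lost without CD1530 D8.5 replicate 2 or 3 or AGN D8.5 replicate 3 (adjusted p up to 0.102), and the D10 call without CD1530 D10 replicate 2 (adjusted p = 0.088). The change of the difference between D8.5 and D10 was itself called (−0.41 ± 0.10, adjusted p = 0.000954).

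Gli3 (chr13:15463235-15730026, plus strand) encodes the factor best known as the pathway's repressor. Unlike Gli1 and Gli2 it was not called between PM and D6.25, with 28.1, 23.9 and 29.1 CPM in PM, 26.6, 31.2 and 29.4 CPM in CD1530 D6.25 and 30.4, 27.0 and 26.1 CPM in AGN D6.25. The log2 difference from PM lay between −0.12 and 0.34 in CD1530 and between −0.19 and 0.28 in AGN (95% intervals). In AGN no later step was called, and the AGN D10 libraries had 27.7, 32 and 31.4 CPM, a log2 fold change against PM of 0.17 with an interval from −0.07 to 0.41. In CD1530 Gli3 was at 35.9, 39.6 and 39.0 CPM at D7.5, 42.3, 41.3 and 44.6 CPM at D8.5 and 56.4, 52.4 and 53.6 CPM at D10, and the last of these steps was called (1.27-fold, adjusted p = 0.00621). CD1530 was 1.38-fold above AGN at D7.5 (0.46 ± 0.11, adjusted p = 0.00186), 1.62-fold at D8.5 (0.70 ± 0.11, adjusted p = 6.61e-06) and 1.78-fold at D10 (0.83 ± 0.11, adjusted p = 2.54e-07), with no overlap of libraries at these 3 times. At D6.75 Gli3 was not called (0.21 ± 0.11, adjusted p = 0.205), but CD1530 replicate 1 was at 23.9 CPM and the others at 34.9 and 38.4. Without that replicate it was called higher in CD1530, with a log2 fold change of 0.39 and an adjusted p of 4.35e-05.

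Hhip (chr8:79965851-80058006, minus strand) encodes a protein that binds hedgehog ligand away from Ptch1, and it had the widest range of the 9 genes. In PM it was nearly absent, at 0.335, 0.142 and 0.592 CPM, which are 7, 3 and 11 counts. At D6.25 it stood at 3.51, 2.98 and 3.96 CPM in CD1530 (9.91-fold, log2 fold change 3.31 ± 0.28, adjusted p = 2.24e-13) and 4.67, 3.66 and 5.15 CPM in AGN (12.8-fold, 3.67 ± 0.27, adjusted p = 2.37e-15). At D7.5 the conditions overlapped, with 7.95 to 8.44 CPM in CD1530 and 7.95 to 9.11 CPM in AGN. At D8.5 AGN had 22.5, 23.6 and 25.4 CPM and CD1530 had 11.6, 11.7 and 11.4 CPM, so that CD1530 was at 0.489 of AGN (−1.03 ± 0.10, adjusted p = 2.41e-11). At D10 the values were 48.7, 45.3 and 48.7 CPM in CD1530 and 128, 130 and 132 CPM in AGN. CD1530 was at 0.366 of AGN (−1.45 ± 0.08, adjusted p = 2.27e-19), a difference larger in size than that of 93.1% of all genes. Over the last step Hhip rose 4.1-fold in CD1530 and 5.47-fold in AGN, and the steps differed by −0.42 ± 0.13 (adjusted p = 0.0124).

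The lower Hhip level in CD1530 at D6.75 (−0.50 ± 0.13, adjusted p = 0.00522) rested on 3.83, 5.18 and 6.83 CPM against 7.58, 8.06 and 6.76 CPM in AGN. The libraries overlapped. Without CD1530 D6.75 replicate 1, the lowest of them, the log2 fold change was −0.31 and the call was lost (adjusted p = 0.07), as it was in a fit of the D6.75 libraries alone (adjusted p = 0.17).

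Foxf1 (chr8:121084386-121088144, plus strand), a forkhead transcription factor gene that answers to hedgehog signals in splanchnic mesoderm, was low in all 33 libraries. PM held 0.622, 0.614 and 0.431 CPM, the D6.25 libraries between 0.511 and 1.32, and the D10 libraries 2.17, 1.93 and 2.53 CPM in CD1530 and 2.75, 2.65 and 3.39 CPM in AGN. At D10 it was above PM in both, 3.91-fold in CD1530 (log2 fold change 1.97 ± 0.32, adjusted p = 4.88e-07) and 5.19-fold in AGN (2.38 ± 0.31, adjusted p = 4.73e-09). At D6.25 the rise was called in AGN (1.02 ± 0.35, adjusted p = 0.01) and not in CD1530 (0.54 ± 0.37, adjusted p = 0.193). Between conditions it was not called at any of the 5 times. The D10 difference was −0.41 ± 0.25 with an interval from −0.92 to 0.10, and the D10 libraries held 35 to 57 counts each. The 6 counted markers of lateral and splanchnic mesoderm summed to between 27.0 and 28.2 CPM in CD1530 D10 and between 9.09 and 10.2 in AGN D10, with Nkx2-5 and Hand1 at 3 counts or fewer in every AGN D10 library.

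**Figure D3:**
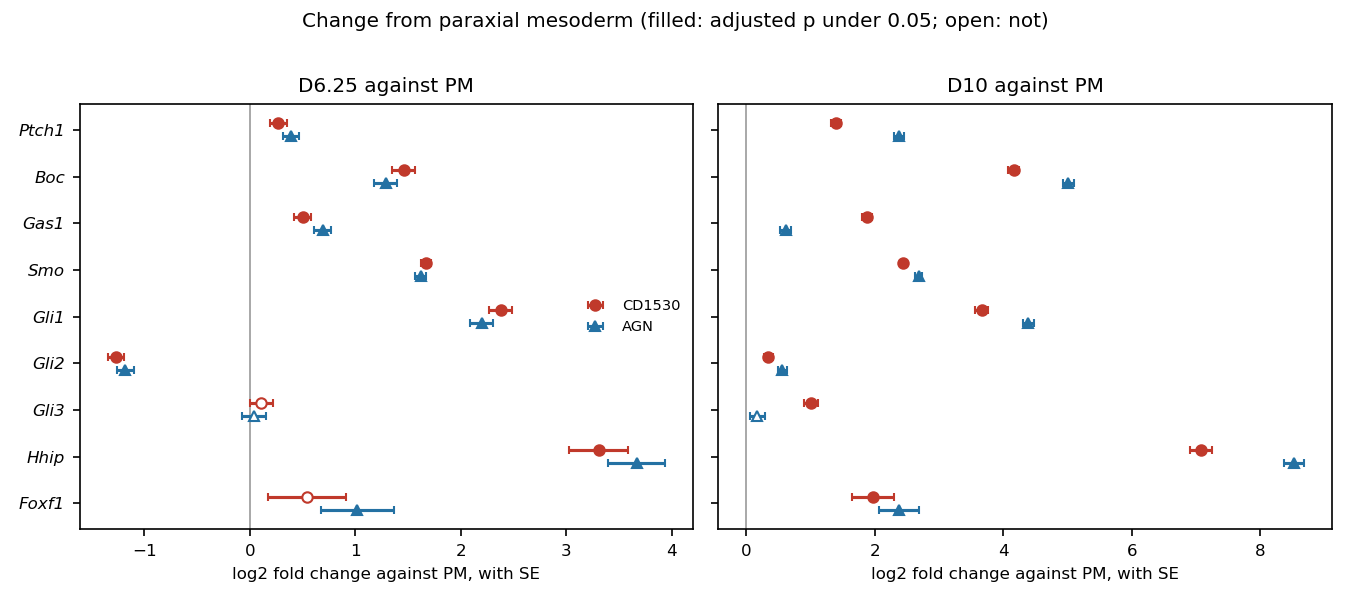
Log2 fold change against PM (horizontal axes) at D6.25, left, and D10, right, for CD1530 (circles) and AGN (triangles), with SE bars and open symbols where the adjusted p was not under 0.05. Gli2 lies below 0 at D6.25 and above it at D10, and Hhip lies farthest right, at 7.08 in CD1530 D10 and 8.52 in AGN D10.

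Step by step, the genes called moved mostly upward. In the main analysis the shares of all genes given for steps pool higher and lower calls, so they do not bear on direction. In CD1530 the successive steps from D6.25 to D10 called 3 genes (45.9% of all genes), 7 (34.2%), 5 (36.5%) and 8 (57.3%), all higher. In AGN they called 5 (43.7%), 5 (30.3%), 7 (42.1%) and 8 (59.4%), all higher except Gas1, which fell in each of the last 2 steps. The Gas1 call from D7.5 to D8.5 (log2 fold change −0.18, adjusted p = 0.0404) was lost without AGN D7.5 replicate 2 or 3 or AGN D8.5 replicate 3, and in a fit of the D7.5 and D8.5 AGN libraries alone. Neighbouring steps share libraries. Without CD1530 D6.75 replicate 1, the first CD1530 step called 5 genes (Gli2, Gli3, Ptch1, Hhip and Boc) as higher (27.1% of all genes) and 0 lower (21.1%). The second then called 6 as higher (15.3%) and 0 lower (13.1%), with Smo lost (adjusted p = 0.337). On the log2 scale the Boc rise from D6.25 to D6.75 was 1.99 without it and 1.89 with it, and the Gas1 rise from D6.75 to D7.5 was 1.11 and 1.04.

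Compared with each other per exonic length, as CPM divided by the kilobases of exon (RPKM), the order of the genes changed with time. In PM, Gas1 led at 7.32 ± 0.74 RPKM, and its libraries overlapped those of Gli2 at 6.71 ± 0.30, which in turn overlapped Ptch1 at 6.11 ± 0.39. Smo was next at 5.76 ± 0.37, and Hhip was last at 0.0393 ± 0.025. At D6.25 Smo led in both conditions, at 18.4 ± 0.38 RPKM in CD1530 and 17.8 ± 0.60 in AGN. The D10 order in CD1530 was Smo (31.3 ± 0.31), Gas1 (26.9 ± 1.8), Boc (22.3 ± 0.93) and Ptch1 (16.0 ± 0.44), with no overlap between neighbours. In AGN D10 it was Boc (40.2 ± 1.1), Smo (36.9 ± 0.76) and Ptch1 (31.5 ± 1.4), and Gas1 stood at rank 6 with 11.2 ± 0.55. Among the Gli genes, Gli1 went from the lowest in PM (0.757 ± 0.083 RPKM, against 2.82 ± 0.29 for Gli3) to the highest at D10, at 9.50 ± 0.25 in CD1530 and 15.8 ± 1.5 in AGN. Gli3 was the lowest of the 3 at D10, with 5.65 ± 0.21 in CD1530 and 3.17 ± 0.24 in AGN. Foxf1 was at 0.230 ± 0.045 RPKM in PM and at 0.915 ± 0.13 in CD1530 D10 and 1.21 ± 0.17 in AGN D10.

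**Figure D4:**
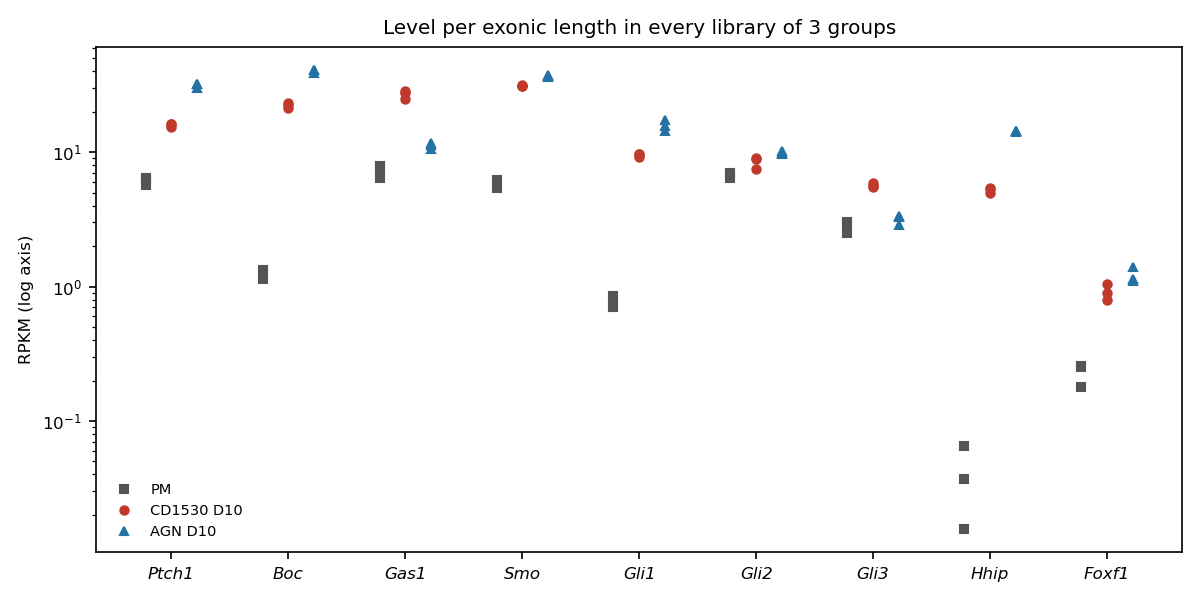
RPKM on a log axis for the 9 genes in the 3 libraries each of PM (squares), CD1530 D10 (circles) and AGN D10 (triangles). Hhip spans the widest range, from 0.0393 RPKM on average in PM to 14.3 in AGN D10, and Gas1 and Gli3 are the genes whose CD1530 D10 points lie above the AGN D10 points.

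Across the 11 group means, on the log2(CPM + 1) scale, Ptch1, Hhip, Gli1, Smo and Foxf1 varied together, with Pearson r between 0.80 (Ptch1 and Smo) and 0.98 (Gli1 and Smo, Hhip and Foxf1). Boc was close to them, with r between 0.79 (Foxf1) and 0.88 (Gli1). Gli3 had r between 0.36 and 0.45 with 7 of the other genes and 0.73 with Gas1. These points share the time course, so the values describe shapes and were not tested. Among 13687 genes that averaged 50 counts or more, the 3 closest in shape to Hhip were Hs2st1, Sparc and Fut11 (r 0.991 to 0.994), and the closest to Ptch1 were Stard9, 9330182L06Rik and Aatk (0.982 to 0.985). Nearest to Gli1 were Pced1a, Gpc3 and Gopc (0.991 to 0.996), to Smo Slc25a24, Serinc1 and Ulk2 (0.992 to 0.995), and to Boc Foxp1 and Hspa12b (0.991 and 0.989). For Gli3 they were Ntrk3, Sfrp2 and Cpne8 (0.977 to 0.990), for Gas1 Chmp7, Nova2 and Luzp1 (0.948 to 0.967), for Gli2 Ltbp4, Scamp5 and Idh2 (0.951 to 0.954), and for Foxf1 Nrk, Mbnl1 and Sdc2 (0.978 to 0.981).

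Of the ligand genes, Shh and Ihh were counted, and Dhh was not among the genes of the count table. Shh was at 0.335, 1.04 and 1.02 CPM in PM and at 8.56, 8.63 and 8.99 CPM in CD1530 D6.25, with 7.78, 7.37 and 7.84 CPM in AGN D6.25. Both were called above PM (log2 fold changes 3.45 ± 0.20 and 3.26 ± 0.21). From D6.75 on Shh was called lower in CD1530, most of all at D8.5, where CD1530 held 0.949, 0.479 and 1.00 CPM and AGN 4.41, 4.43 and 4.61 CPM (log2 fold change −2.47 ± 0.23, adjusted p = 6.37e-12). The D10 libraries had 1.16, 1.87 and 2.30 CPM in CD1530 and 3.00, 3.13 and 2.79 CPM in AGN (−0.75 ± 0.22, adjusted p = 0.00402), a call that was lost without CD1530 D10 replicate 1 (−0.51, adjusted p = 0.0657). Ihh, the ligand gene of growing cartilage, was at 0.214 ± 0.07 CPM in PM and 2.47 ± 0.52 and 2.06 ± 0.10 CPM in CD1530 and AGN D6.25, and was higher in CD1530 at D6.75 (log2 fold change 1.57 ± 0.30, adjusted p = 0.000131) and at D7.5 (adjusted p = 1.79e-06), where it was at 0.968 ± 0.32 CPM against 0.117 ± 0.028 in AGN. From D7.5 on, its AGN libraries held 0 to 3 counts each. The CD1530 libraries were low as well by then, with 1, 6 and 3 Ihh counts at D8.5 and 4, 5 and 2 at D10. The Shh and Ihh calls at D6.75 held under each of the 15 alternatives run. Among the 6 listed markers of cells that make hedgehog ligand, several were higher where Shh was. Foxa2 was at 46.1 and 49.5 CPM in CD1530 and AGN D6.25 against 0.73 in PM, and at D10 at 4.28 in CD1530 and 14.1 in AGN. Foxa2 is also on the list of 6 endoderm markers, which summed to between 249 and 255 CPM in PM. At D6.25 that endoderm sum was between 345 and 350 CPM in CD1530 and between 385 and 386 in AGN. Most of the PM sum was Epcam, at 250 CPM, which was lower at D6.25, at 173 and 195 CPM in CD1530 and AGN. Sox17 was at 0.968 CPM in PM and at 67.5 and 80.9 in CD1530 and AGN D6.25, and Foxa1 at 1.66, 60.6 and 60. Afp and Ttr stayed low, at 0.26 and 0.203 CPM in CD1530 D6.25 and 0.204 and 0.0636 in AGN D6.25. Ntn1 was lower at D6.25, at 187 and 212 CPM in CD1530 and AGN against 264 in PM. Which cells held Foxa2 was not tested. Noto was at 0 in all 3 CD1530 D10 libraries and at 2.33 ± 0.61 CPM in AGN D10, and Foxj1 was at 1.73 ± 0.22 and 25.3 ± 2.0 CPM. The list of 6 markers of ligand-making cells, Shh included, summed to between 256 and 286 CPM in PM. At D6.25 it summed to between 248 and 267 in CD1530 and 284 and 289 in AGN, so the sum did not follow Shh there. At D10 it was between 376 and 390 CPM in CD1530 and between 584 and 595 in AGN. Most of that was Ntn1, at 373 ± 7 and 545 ± 4.1 CPM, and the part of these markers in the Ptch1, Gli1 and Hhip differences was not tested.

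Cdon, the co-receptor gene related to Boc, was higher in CD1530 at D10, as Gas1 was. The Cdon level was 52.9 ± 1.5 CPM in CD1530 D10 and 38 ± 1.2 in AGN D10 (0.48 ± 0.10, adjusted p = 0.000373). Sufu, whose product restrains the Gli factors, was at 48.7 ± 2.8 CPM in PM, 82.8 ± 1.3 in CD1530 D10 and 60.2 ± 3.7 in AGN D10 (0.46 ± 0.06 between conditions, adjusted p = 1.44e-08).

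**Figure D5:**
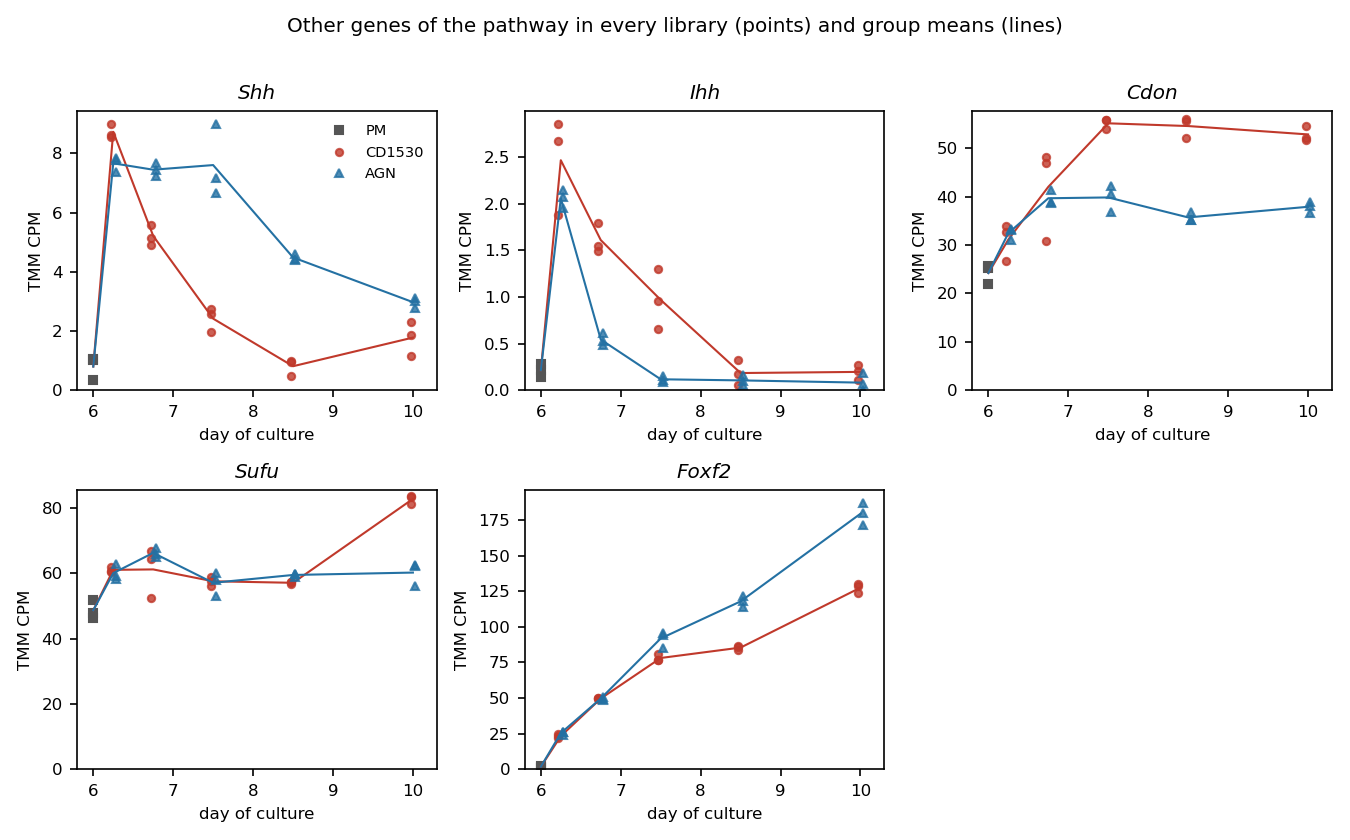
TMM CPM (vertical axes, each from 0) against day of culture for the ligand genes Shh and Ihh, the co-receptor gene Cdon, the inhibitor gene Sufu and the forkhead gene Foxf2, drawn as in the plot of the 9 genes. Shh is at 0.81 CPM in CD1530 and 4.48 CPM in AGN at D8.5, and Foxf2 ends at 128 and 180 CPM.

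A wider list of 63 pathway genes, chosen with results of these data already known, held 61 that were counted, in 5 classes, with 1 gene in 2 of them. At D10, 14 of the 61 were called higher and 25 lower in CD1530, and the median was −0.10 on the log2 scale, against −0.019 for all genes. Of all genes, 22.7% were called higher and 24% lower. Of 27 reported hedgehog targets in mesoderm 7 were higher and 15 lower (median −0.32), of 11 cilium and Smo traffic genes 0 were higher and 5 lower (−0.10), and of 13 intracellular inhibitors and processing genes 4 were higher and 1 lower (−0.02). Of 7 ligand release and uptake genes 2 were higher and 3 lower, and of 4 receptors and co-receptors 1 was higher and 2 lower. At D6.25 against PM, CD1530 had 41 of the 61 called above PM (34.5% of all genes) and 10 below it (33.3%), and AGN had 47 above (35%) and 9 below (33.1%).

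The listed genes with the largest D10 differences included sclerotome and cartilage regulators on the AGN side. Nkx3-2, a repressor in early cartilage, stood at 5.73 ± 0.43 CPM in CD1530 against 16.2 ± 0.48 in AGN (log2 fold change −1.50 ± 0.12, adjusted p = 1.42e-13), and the sclerotome gene Pax9 was at 6.29 ± 0.50 and 16.1 ± 0.76 CPM (−1.35 ± 0.11, adjusted p = 1.82e-13). Bmp4, a BMP ligand, was at 69.7 ± 1.2 and 179 ± 4 CPM (−1.36 ± 0.05), and Grem1, a BMP antagonist, at 34.5 ± 0.78 and 83.8 ± 3.1 CPM (−1.28 ± 0.08). On the CD1530 side, Osr1, a transcription factor gene of connective tissue, stood at 38.3 ± 2.5 CPM in CD1530 against 7.01 ± 0.76 in AGN (2.45 ± 0.13, adjusted p = 4.49e-19). Foxd2 was at 9.04 ± 1.2 and 1.30 ± 0.43 CPM (2.79 ± 0.19). Sfrp2, which encodes a Wnt-binding protein, was at 49.3 ± 0.75 and 13.3 ± 1.1 CPM (1.89 ± 0.09), Cntfr at 127 ± 2.3 and 47.8 ± 1.8 CPM (1.41 ± 0.06), and the cyclin gene Ccnd1 at 310 ± 7.5 and 136 ± 4.4 CPM (1.19 ± 0.05). Listed hedgehog targets stood on both sides at D10. The cartilage marker sum moved with the AGN side, at 3080 to 3220 CPM against 237 to 244, and its part in these differences was not tested. The sum of the 7 counted neural markers was higher on the CD1530 side, at 146 to 159 CPM against 66.4 to 67.9 in AGN D10. Most of it was Sox2, at 77.9 and 49.2 CPM, and the part of the neural markers was not tested either.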

How the data were processed

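Total RNA of 33 cultures was sequenced, and the authors aligned reads to GRCm38 with STAR and assigned them to genes with featureCounts. Their deposited values are raw gene counts. Which annotation and strand setting were used, and what was done with multiply aligned reads, is not given in the sources used here. Every gene in it reached 0.611 CPM in at least 3 libraries. All 17120 identifiers matched GENCODE M21.

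Counts were analysed with edgeR 4.0.16 in R 4.3.3. One robust quasi-likelihood fit of all 33 libraries with 11 group means and TMM factors (0.902 to 1.05) gave 19 contrasts, each adjusted by the Benjamini-Hochberg method over all genes. The biological coefficient of variation was 4.68%, and filterByExpr removed 0 genes. Intervals are 95%, from the SE and 22 residual degrees of freedom. Levels are mean ± SD of 3 libraries. Replicates are separate samples by their labels. The methods call them biological, and which line or culture each came from is not given. The p-values rest on the spread between samples as estimated in the fit over all 11 groups, not on the compared groups alone. Floors of 3 counts cover counting error only. The fit was tested on simulated data.

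Members and lists were chosen with earlier results of these data known. Outside the 9 members, the text names Shh, Ihh, Cdon, Sufu and up to 10 listed genes called between conditions at D10 by 1 or more log2 units in either direction. Foxf2 and the single marker genes were named after their values were seen. The 3 genes of most similar shape were taken by Pearson correlation. A few genes that these rules pick are not reported here. Alternatives were DESeq2 1.42.0 and its size factors, scaling by library size, other filters, a fit that is not robust, a likelihood ratio test, the compared groups only, a replicate block, and leaving out each library. Same-numbered libraries deviated together, with every correlation over 0.1, in 1 of 17 contrasts, CD1530 D6.25 to D6.75. The main fit took no replicate numbers as pairs, there or elsewhere, and the replicate block was an alternative only. Figures were drawn with matplotlib 3.10.9.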

Additional observations from a re-analysis of the deposited data

Results flagged for a closer look

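For 8 of the 9 genes the difference between CD1530 and AGN changed over the 5 time points, by the joint test of the condition by time interaction in edgeR, adjusted over all 17120 genes. The adjusted p was 1.36e-14 for Boc, which was higher in CD1530 at D7.5 and higher in AGN at D8.5 and D10, and 1.69e-13 for Gas1, whose difference in favour of CD1530 grew from D7.5. It was 4.45e-10 for Hhip, 2.9e-08 for Ptch1 and 3.22e-08 for Gli1, all higher in AGN at D10. The values were 0.000596 for Gli3, 0.00142 for Smo and 0.00174 for Gli2. Foxf1 was not called (adjusted p = 0.646). Of all genes, 48.8% were called in the same test, so the count of 8 is to be read against that share.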

How the results depend on the processing

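Of 2984 alternative fold changes over 196 results, 2869 kept their direction and their side of the threshold, 61 lost a call, 19 gained one and 35 changed sign, none of the last being called in the main analysis. With the compared groups alone, 1 of the 9 genes was called at D6.25 (Gas1) and 0 at D6.75, where the main analysis called 0 and 2. Scaling by library size left 5 calls in the CD1530 step from D8.5 to D10 in place of 8, shifted the median of all genes in that step to −0.127, and gave Boc −0.09. It gave Gli3 −0.01 in the AGN step from D6.25 to D6.75, as did the compared groups alone. Leaving out 1 library gave 2 to 5 calls for the CD1530 step from D6.25 to D6.75, 5 to 8 for that from D8.5 to D10 and 3 to 5 for the AGN step from D6.25 to D6.75. The log2 fold changes whose sign turned when 1 library was left out ranged as follows. Between conditions at D6.75, Gli2 lay between −0.13 and 0.11, Foxf1 between −0.15 and 0.37 and Gas1 between −0.12 and 0.00. At D7.5, Ptch1 lay between −0.01 and 0.08 and Foxf1 between −0.31 and 0.23. In AGN D6.25 against PM, Gli3 lay between −0.06 and 0.10. In the CD1530 step from D6.25 to D6.75, Ptch1 lay between −0.02 and 0.20, Smo between −0.07 and 0.09 and Gas1 between −0.04 and 0.08. Foxf1 in the next CD1530 step lay between −0.11 and 0.39, and Boc in the last between −0.02 and 0.04. In the AGN step from D6.25 to D6.75, Gli3 lay between −0.05 and 0.08 and Foxf1 between −0.42 and 0.02, and Gli3 in the next between −0.07 and 0.05. The Foxf1 interaction from D8.5 to D10 lay between −0.06 and 0.22. The cause of these changes was not tested.

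With the compared groups alone, calls over all genes went from 329 to 804 at D6.25, from 3076 to 1236 at D6.75, from 7853 to 5185 in the CD1530 step from D6.25 to D6.75 and from 5854 to 2792 in the next. At D6.25, leaving out 1 library gave as few as 196 calls. The replicate block gave 3 calls among the 9 genes in the CD1530 step from D6.25 to D6.75, as without it, and 8 at D10. It changed no call of these genes in any of the 19 contrasts, and same-numbered libraries correlated between −0.20 and 0.27. Scaling by library total moved 31 of the 99 group levels by over 1 SD, by factors of 0.905 to 1.049. Among the 27 genes of most similar shape, 1 (Ntrk3) kept its rank by Spearman correlation. Counts were low for Foxf1 (8 to 65 a library) and for Hhip in PM (3 to 11).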
